A study of Mus musculus with 40 samples.

Results

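Transcript levels of 41 genes of DNA replication and mitosis were followed in healing mouse hearts. The members came from a list of named genes with no threshold on a measured value, drawn up with earlier results of these data known, and all 41 were rows of the table of 11450 genes analysed here. They comprised 11 replication genes, 29 mitosis genes and Lmnb1, which encodes the nuclear lamina protein lamin B1 and is shown apart. The adult animals were of the C57BL/6 inbred strain and had the left anterior descending coronary artery tied off permanently. Scar tissue (the injured region) and tissue remote from it (the uninjured region) were taken from each heart at day 3, 7, 14, 21 or 42 after the ligation. With 4 mice a day this gave 40 RNA-seq libraries from 20 mice, in 10 groups of 4. The uninjured region belongs to the same operated heart, so hearts that were not ligated are no part of these comparisons. All mice of day 42 carry labels starting with B and the others labels starting with A, and that day and that set of mice cannot be told apart.

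A cell that divides first copies its DNA in S phase and then separates the copies in mitosis. The MCM proteins form the helicase that opens the double helix, PCNA is the ring that holds polymerases on DNA, ribonucleotide reductase (Rrm1, Rrm2) and thymidylate synthase (Tyms) supply nucleotides, and Uhrf1 helps to copy DNA methylation. Later the cyclins and Cdk1 drive entry into mitosis, condensins pack the chromosomes, kinesins and kinetochore proteins move them, and anillin and its partners split the cell. Transcription of many replication genes is timed by E2F factors, and that of many mitosis genes by the MuvB complex with B-Myb and FoxM1. Most adult mouse heart muscle cells have left the cell cycle, whereas fibroblasts, endothelial cells and leukocytes of an infarct are known to divide.

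Promoter windows, 250 bases before to 50 bases after the annotated start, were read for 34 of the 41 members from RefSeq (build GRCm38.p6, mm10). Letters of 3 kinds were searched on both strands: E2F-type motifs (TTTCCCGC, TTTGGCGC, TTTCGCGC or TTTGCCGC), the cell cycle genes homology region or CHR, to which MuvB binds (TTTGAA or TTCGAA), and the CCAAT box. Shares count genes, and a gene with more than 1 window counts if any window matches (4 members have 2). E2F-type letters were found for 5 of 10 replication genes (50%) and 3 of 24 mitosis genes (12.5%). The share was 2.6% of 27025 genes with a window and 4.7% of the 8596 of them that are rows of the table. CHR letters were found for 2 of 10 replication genes (20%) and 20 of 24 mitosis genes (83.3%), against 21.7% of all genes and 16.2% of those in the table. A CCAAT box was found for 9 of 10 replication genes (90%) and 21 of 24 mitosis genes (87.5%), so the kinds were close. It was found for 41.1% of all genes and 42.4% of those in the table. A CHR and a CCAAT box in the same window were found for 2 of 10 replication and 19 of 24 mitosis genes (79.2%), against 8.61% of all genes and 6.65% of those in the table. A match is a description of the letters only. The windows of 2 helicase subunit genes and 4 mitosis genes are shown because they display the difference between the kinds in E2F-type and CHR letters. They were chosen with their values known. Values per library are given below for Mcm6, Cdc20, Plk1 and Cenpf on some of the days, and Cenpf departed from the rest in its difference between the regions. Capitals mark the motif letters found, and in Mcm5 and Mcm6 a pair of E2F-type matches on opposite strands overlap and so share 1 run of capitals. The windows lie at chr8:75109259-75109558 on the plus strand (Mcm5), chr1:128359656-128359955 on the minus strand (Mcm6), chr4:118437294-118437593 on the minus strand (Cdc20), chr9:70421505-70421804 on the minus strand (Ccnb2), chr7:122159185-122159484 on the plus strand (Plk1) and chr1:189688037-189688336 on the minus strand (Cenpf), and each is written 5′ to 3′ in the direction of its gene.
Mcm5: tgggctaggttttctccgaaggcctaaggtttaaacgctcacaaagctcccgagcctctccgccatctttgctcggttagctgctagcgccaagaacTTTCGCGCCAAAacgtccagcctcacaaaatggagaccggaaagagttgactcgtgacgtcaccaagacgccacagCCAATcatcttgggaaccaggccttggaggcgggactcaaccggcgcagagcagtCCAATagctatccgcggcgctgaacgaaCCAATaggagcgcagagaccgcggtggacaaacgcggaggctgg
Mcm6: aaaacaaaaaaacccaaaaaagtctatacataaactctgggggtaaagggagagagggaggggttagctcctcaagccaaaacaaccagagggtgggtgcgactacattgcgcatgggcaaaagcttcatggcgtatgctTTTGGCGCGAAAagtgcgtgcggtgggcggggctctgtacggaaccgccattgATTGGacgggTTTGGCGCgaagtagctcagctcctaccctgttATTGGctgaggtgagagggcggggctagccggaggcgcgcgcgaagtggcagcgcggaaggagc
Cdc20: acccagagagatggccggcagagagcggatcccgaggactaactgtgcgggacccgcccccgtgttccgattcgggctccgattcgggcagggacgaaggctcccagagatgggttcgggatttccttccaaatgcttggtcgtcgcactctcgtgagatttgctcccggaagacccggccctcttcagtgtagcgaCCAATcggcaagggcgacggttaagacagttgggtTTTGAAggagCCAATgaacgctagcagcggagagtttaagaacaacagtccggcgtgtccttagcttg
Ccnb2: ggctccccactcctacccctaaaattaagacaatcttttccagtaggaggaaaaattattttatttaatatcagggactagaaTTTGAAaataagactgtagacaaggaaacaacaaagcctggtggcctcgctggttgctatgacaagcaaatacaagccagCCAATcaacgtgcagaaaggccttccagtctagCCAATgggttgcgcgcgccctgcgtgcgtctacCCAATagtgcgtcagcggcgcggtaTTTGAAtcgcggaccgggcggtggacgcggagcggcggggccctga
Plk1: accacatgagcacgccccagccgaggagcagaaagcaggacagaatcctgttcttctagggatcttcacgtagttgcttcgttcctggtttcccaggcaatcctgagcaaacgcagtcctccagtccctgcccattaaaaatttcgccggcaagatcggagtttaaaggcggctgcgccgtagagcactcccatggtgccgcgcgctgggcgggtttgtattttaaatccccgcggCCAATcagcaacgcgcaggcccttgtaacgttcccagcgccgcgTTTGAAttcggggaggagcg
Cenpf: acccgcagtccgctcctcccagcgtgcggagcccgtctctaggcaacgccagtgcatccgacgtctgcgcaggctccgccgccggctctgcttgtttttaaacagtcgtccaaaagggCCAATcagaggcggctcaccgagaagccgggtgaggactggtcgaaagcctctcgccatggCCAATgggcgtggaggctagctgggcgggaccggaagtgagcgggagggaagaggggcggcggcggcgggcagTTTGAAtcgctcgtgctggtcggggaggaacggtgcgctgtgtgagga

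The Cenpf window holds the same pair of motifs as the windows of Cdc20, Ccnb2 and Plk1. Its mean level peaked on the same day as theirs in each region. Unlike theirs, it was not called higher in the injured region at day 3, and it was lower there from day 7 on (below). The counts and shares above were not tested.

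Levels were deposited as RPKM, the authors' scaling of reads for gene length and library depth. Whole read numbers recovered from these values summed to 10966454 to 22778788 per library. Library medians lay between 5.8 and 6.19 RPKM. The members were covered by a median of 1151 reads per gene and library in the injured region at day 3 and 98.5 in the uninjured region at day 42, where 1 Plk1 value rested on 4 reads. Tests were run with limma on log2(RPKM + 1) over 11390 genes that reached 1 RPKM in 4 or more libraries. On that scale changes of low genes come out too small. All 41 members passed that filter, and 34 of them reached 1 RPKM in 20 or more libraries. Gene positions are from the GENCODE M21 annotation of mm10. Differences below are log2 differences ± SE with adjusted p under 0.05 as the call, and levels are RPKM. Scaling to the recovered reads in place of the authors' library sizes moved the median of all genes between regions by up to 0.47 on the log2 scale (0.26 to 0.47 over the days, injured higher), against 0.03 to 0.06 with the deposited values. Relative to that shift the median member was 1.92 higher at day 3 and 0.30 lower at day 7 in the injured region. Exons of 11 members overlap those of another gene, for 9 of them on the opposite strand (Mcm7, Ccna2, Plk1, Cdc20, Ube2c, Kif20a, Prc1, Nusap1 and Ncapg), and 4 have named pseudogenes (Pcna, Tyms, Ccnb1 and Ccnb2). Whether counting used the strand or unique reads is not given in the sources used here, so levels of these genes are less certain. Nothing in the labels says that the 4 libraries of a group were technical repeats, since each is from another mouse.

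**Figure D1:**
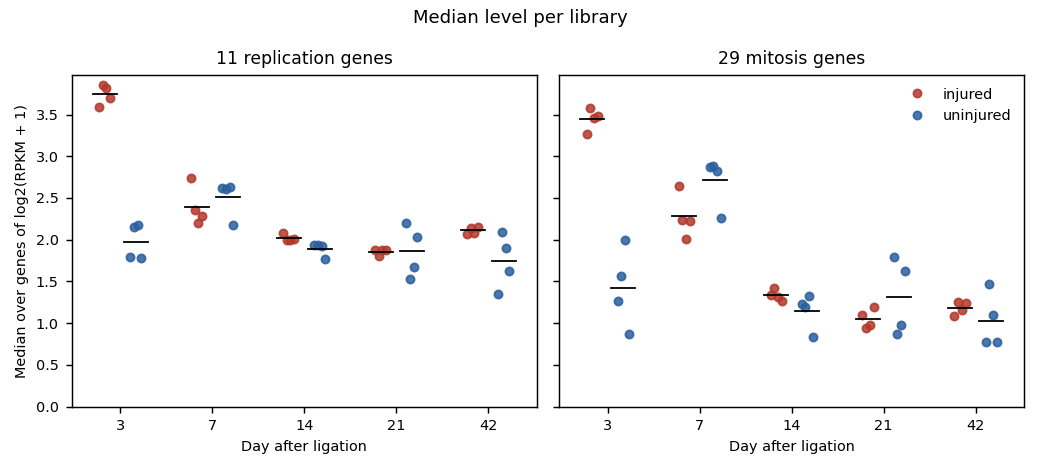
Median over the 11 replication genes (left) and the 29 mitosis genes (right) of log2(RPKM + 1) in each of 40 libraries, by day after ligation, with injured libraries left of uninjured ones and a bar at the mean of 4 mice. Injured libraries were high at day 3, uninjured libraries had their highest mean at day 7, and the regions lay closer together from day 7 on than at day 3.

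The members had 1 peak in each region, on different days. In the injured region the mean of all 41 was highest at day 3, a pattern shown by 35.3% of the genes tested. In the uninjured region the mean of all 41 was highest at day 7, as for 20.1% of the genes tested. Both held for 41 of 41 members and for 9.47% of the genes tested. The F test over days called 41 of 41 members in the injured region (87.6% of all genes) and 39 of 41 in the uninjured region (47.2%), where Mcm2 and Rrm2 did not pass (limma adjusted p = 0.305 and 0.0753). The plot of median levels per library shows both peaks for replication and mitosis genes alike.

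At day 3 the injured region held more transcript of nearly every member than the uninjured region of the same hearts. Mki67, which encodes the proliferation antigen Ki-67 (chromosome 7, 135689784 to 135716361), had 36.5, 43.4, 38.2 and 36.1 RPKM in the injured region of mice A4, A5, A7 and A8, against 5.03, 6.23, 8.04 and 2.45 RPKM in the uninjured region. The lowest injured value was over 4 times the highest uninjured one. Its log2 difference of 2.7 ± 0.18 was the largest of the 41 (limma adjusted p = 2.76e-11). In all, 40 of 41 members were higher and 0 lower at day 3, where 44.1% of the 11390 genes were higher and 39.6% lower, and 40 members reached an unadjusted p under 0.05. Their median log2 difference was 2.03, beside 0.06 over all genes tested. The injured values lay above the uninjured ones without overlap for the same 40 members, and Cenpf overlapped. The share of all genes without such overlap is not given here, so this count has no background beside it. In this bulk tissue, more cells in the cycle and more RNA per cell cannot be told apart.

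All 11 replication genes were higher in the injured region at day 3, with a median log2 difference of 1.64 and a median ratio of the means of 3.96. Mcm6, the helicase subunit with the highest level (chromosome 1, 128331590 to 128359664), had 17.9, 20.7, 22.2 and 18.9 RPKM in the injured region, against 4.31, 5.6, 6.69 and 3.51 RPKM in the uninjured region, and differed by 1.82 ± 0.11 (limma adjusted p = 1.01e-12). The other 5 helicase subunits (Mcm2, Mcm3, Mcm4, Mcm5 and Mcm7) differed by 1.3 for Mcm7 to 1.95 for Mcm5. Of the replication genes Uhrf1 had the widest gap, with 11.6, 13.5, 14.5 and 12.4 RPKM in the injured region, against 0.926, 1.52, 2.68 and 0.82 RPKM in the uninjured region (2.55 ± 0.14, limma adjusted p = 2.25e-13). The catalytic subunit of ribonucleotide reductase, Rrm1, differed by 1.33 ± 0.09 and its other subunit, Rrm2, by 2.25 ± 0.25. Tyms differed by 1.64 ± 0.10. Pcna (chromosome 2, 132249162 to 132253314) had the smallest gap of the replication genes. It stood at 19.5, 21.95, 22.4 and 21.04 RPKM in the injured region, against 11.2, 12.8, 13.6 and 10.1 RPKM in the uninjured region, where no other replication gene averaged as much (0.79 ± 0.09, limma adjusted p = 1.14e-07). 

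Of the 29 mitosis genes 28 were higher in the injured region at day 3, with a median log2 difference of 2.06 and a median ratio of the means of 6.39. Whether the mitosis genes moved further than the replication genes was not tested. Ccna2, which encodes cyclin A2 and acts in both S phase and mitosis (chromosome 3, 36564865 to 36572150), had 16.2, 19.7, 17.1 and 20.2 RPKM in the injured region, against 2.84, 2.97, 4.38 and 0.977 RPKM in the uninjured region (2.43 ± 0.23, limma adjusted p = 6.95e-09). The injured value was the higher one in 4 of 4 mice. The mitotic cyclins Ccnb1 and Ccnb2 differed by 1.6 ± 0.17 and 2.26 ± 0.25, and their kinase Cdk1 by 2.38 ± 0.22. Top2a, the topoisomerase that untangles chromosomes, differed by 2.43 ± 0.22.

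Genes of the mitotic kinases and of the checkpoint moved together with the cyclins at day 3. Plk1, which encodes Polo-like kinase 1 (chromosome 7, 122159439 to 122169873), had 7.09, 9.81, 8.09 and 8.45 RPKM in the injured region, against 0.347, 0.668, 1.24 and 0.539 RPKM in the uninjured region (2.48 ± 0.13, limma adjusted p = 1.38e-13). At a ratio of the means of 12, it had the largest fold of the 41. Aurka, which encodes Aurora kinase A of the spindle poles, had 6.43, 8.39, 7.4 and 7.32 RPKM in the injured region, against 0.905, 1.38, 1.35 and 0.493 RPKM in the uninjured region (2.07 ± 0.16). Aurora B and survivin, members of the chromosomal passenger complex encoded by Aurkb and Birc5, differed by 1.88 ± 0.13 and 2.15 ± 0.12. Cdc20 activates the anaphase-promoting complex. Its transcript stood at 10.6, 13.7, 14.6 and 14.5 RPKM in the injured region, against 1.43, 2.42, 4.04 and 1.67 RPKM in the uninjured region (2.13 ± 0.18). Ube2c, the ubiquitin-conjugating enzyme of that complex, had 6.11, 6.75, 6.24 and 6.84 RPKM in the injured region, against 0.734, 1.07, 1.24 and 0.384 RPKM in the uninjured region (2.03 ± 0.20). Bub1 and Bub1b, kinases of the spindle checkpoint, differed by 2.06 ± 0.14 and 2.0 ± 0.16.

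The machinery that moves, packs and parts the chromosomes was higher as well, with 1 exception. Kif11, the motor that pushes spindle poles apart, had 11.8, 12.9, 12.4 and 13.7 RPKM in the injured region, against 2.34, 2.34, 3.31 and 1.28 RPKM in the uninjured region (2.08 ± 0.16). Kif23, Kif20a, Prc1, Tpx2 and Nusap1, motors and microtubule-binding proteins of the spindle, differed by 1.66 (Nusap1) to 2.42 (Tpx2), and the kinetochore motor gene Cenpe by 2.32 ± 0.12. Among the condensin genes, Smc4 (chromosome 3, 69004738 to 69034623) had 22.99, 25.01, 22.5 and 24.6 RPKM in the injured region, against 8.73, 9.02, 8.64 and 6.29 RPKM in the uninjured region (1.44 ± 0.10). Smc2, Ncapg and Ncapd2, its partners, differed by 1.88, 1.81 and 1.21. Anln, which encodes the cleavage furrow protein anillin, had 14.1, 15.99, 14.7 and 16.5 RPKM in the injured region, against 2.27, 2.38, 3.45 and 1.22 RPKM in the uninjured region (2.34 ± 0.21), and the cytokinesis regulators Racgap1 and Ect2 differed by 1.92 ± 0.13 and 1.87 ± 0.13. Lmnb1 had 17.6, 22.1, 19.1 and 18.04 RPKM in the injured region, against 2.3, 2.63, 4.56 and 2.13 RPKM in the uninjured region (2.41 ± 0.11). For each of these genes every injured value lay above every uninjured value, with limma adjusted p of 7.96e-08 or less over the mitosis genes called. The exception was Cenpf (chromosome 1, 189640606 to 189688086), a large kinetochore protein that also binds microtubules, at 4.49, 6.11, 5.3 and 5.63 RPKM in the injured region, against 5.91, 3.2, 4.34 and 4.87 RPKM in the uninjured region (0.21 ± 0.14, limma adjusted p = 0.173). Its groups overlapped. It passed as higher without mouse A4 (0.39, limma adjusted p = 0.0194) and with scaling to the recovered reads (0.64, limma adjusted p = 0.000141), each making 41 of 41. With that scaling the median of all genes was itself 0.47 higher in the injured region at day 3.

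**Figure D2:**
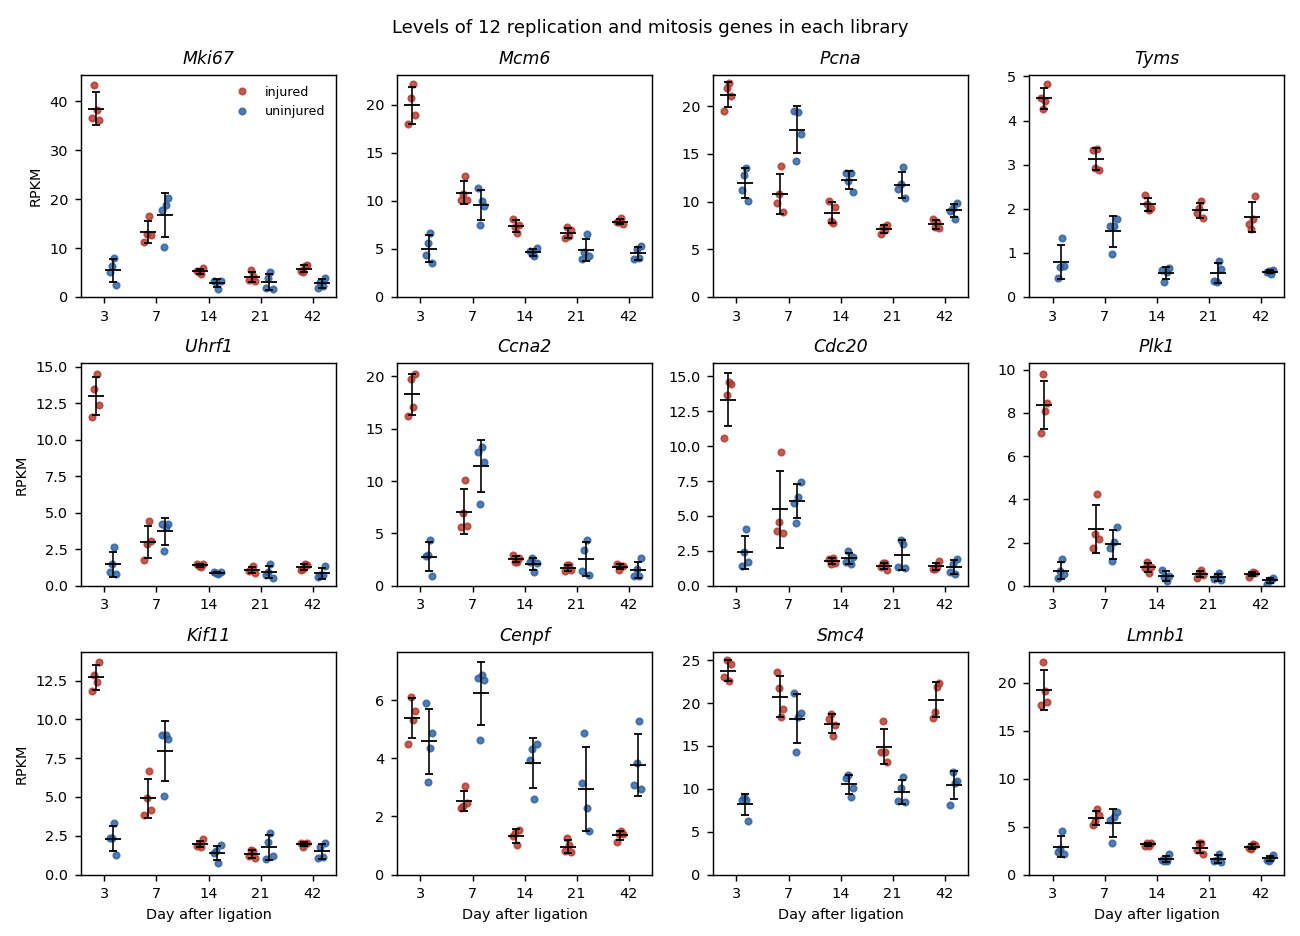
RPKM of 12 members in each library by day after ligation, with injured libraries (red) left of uninjured ones (blue), and the mean with its SD (n = 4) in black. Most panels show a fall after day 3 in the injured region and a rise to day 7 in the uninjured one, whereas Cenpf stayed higher in the uninjured region from day 7 and Tyms higher in the injured region on each day.

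From day 3 to day 7 the regions moved in opposite directions. Of 41 members 40 fell in the injured region (32.7% of all genes did), by a median of -1.14 on the log2 scale, -1.09 for replication and -1.14 for mitosis genes. Meanwhile 39 of 41 rose in the uninjured region (10.4% of all genes did), by a median of 1.04, 0.52 for replication and 1.14 for mitosis genes. The difference between the regions narrowed or turned round for 41 of 41 members (22.1% of all genes were lower in this contrast), by -0.91 for Tyms to -3.06 for Ccna2, with a limma adjusted p of at most 3.95e-05. That contrast tests the change in the regional difference itself, and it called 41 of 41 without each mouse of days 3 and 7 in turn and under both other scalings. The F test of the regional difference over all days likewise called 41 of 41 (74.3% of all genes).

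In mice A7, A9, A10 and A12 of day 7, Mki67 stood at 11.2, 12.8, 16.6 and 12.6 RPKM in the injured region and at 17.8, 10.1, 18.8 and 20.2 RPKM in the uninjured region. Against day 3 this was a fall of 1.48 ± 0.12 in the injured region and a rise of 1.5 ± 0.31 in the uninjured region on the log2 scale (limma adjusted p = 1.07e-08 and 0.00281). The regions thus overlapped at day 7. At day 7 Ccna2 had 5.61, 6.93, 10.1 and 5.68 RPKM in the injured region, against 12.8, 7.84, 13.2 and 11.8 RPKM in the uninjured region, where it rose by 1.78 ± 0.33, the largest rise of the 41 (limma adjusted p = 0.00119). Kif11 had 3.81, 4.94, 6.69 and 4.19 RPKM in the injured region, against 9.02, 5.05, 8.97 and 8.74 RPKM in the uninjured region, with a rise of 1.44 ± 0.23 there (limma adjusted p = 0.000356). In both genes mouse A9 had the lowest uninjured value and A10 the highest injured one. The rises of the other cyclins and of Cdk1 were 0.83 ± 0.19 (Ccnb1), 1.71 ± 0.32 (Ccnb2) and 1.57 ± 0.29 (Cdk1).

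Replication genes rose less far in the uninjured region, with a median ratio of day 7 over day 3 means of 1.6, against 3.16 for mitosis genes. This contrast of the kinds was not tested. At day 7 Mcm6 had 10.03, 10.7, 12.5 and 10.04 RPKM in the injured region, against 11.3, 7.44, 10.02 and 9.44 RPKM in the uninjured region, where it had risen by 0.82 ± 0.15 (limma adjusted p = 0.00092). Pcna had 9.85, 10.8, 13.8 and 8.87 RPKM in the injured region, against 19.5, 14.3, 19.4 and 17.1 RPKM in the uninjured region, with a rise of 0.52 ± 0.10 (limma adjusted p = 0.00153). Its 4 uninjured values lay above its 4 injured ones, the reverse of day 3. Uhrf1 had 1.75, 2.83, 4.43 and 3.07 RPKM in the injured region, with the deepest fall of the 41 (-1.84 ± 0.14), against 4.25, 2.38, 4.0 and 4.25 RPKM in the uninjured region. Mcm2 (0.41 ± 0.17, limma adjusted p = 0.0848) and Cenpf (0.39 ± 0.22, limma adjusted p = 0.217) were the 2 members that did not pass the uninjured step. In the injured region Smc4 did not pass, at 23.6, 21.7, 18.4 and 19.3 RPKM at day 7 (-0.19 ± 0.09, limma adjusted p = 0.0777), while its uninjured values of 21.2, 14.3, 18.4 and 18.8 RPKM were 1.06 ± 0.13 above those of day 3. The injured fall of Smc4 passed with scaling to the recovered reads (-0.28, limma adjusted p = 0.0206) and without A7 of day 7 (-0.26, limma adjusted p = 0.0287). Leaving out day 3 or day 7 mice in turn gave 34 to 40 members that rose in the uninjured region and 40 to 41 that fell in the injured one.

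**Figure D3:**
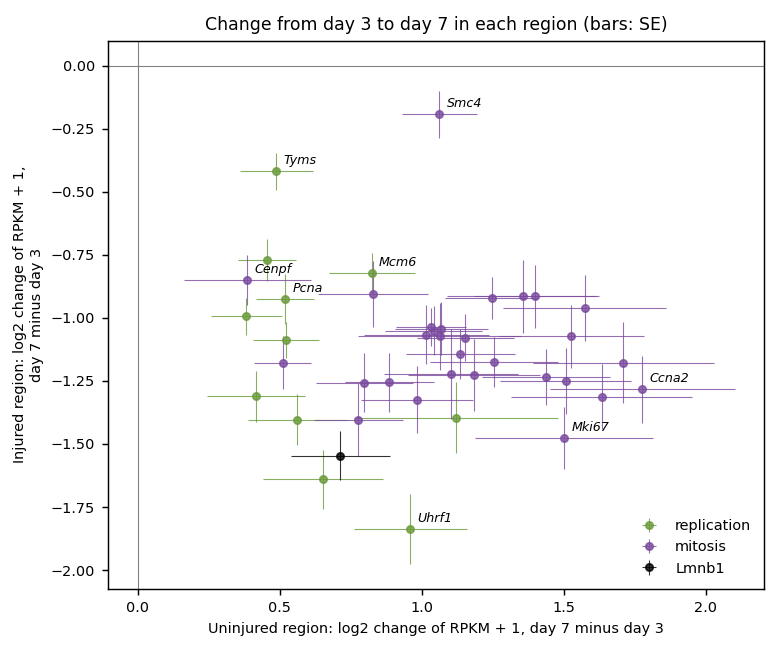
Log2 change of RPKM + 1 from day 3 to day 7 in the uninjured region (horizontal) and the injured region (vertical) for 41 members, coloured by kind, with SE bars. All points lie right of 0 and below 0, replication genes mostly between 0.38 and 0.96 on the horizontal axis and mitosis genes up to 1.78.

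The uninjured peak of day 7 was lower than the injured peak of day 3. The ratio of the uninjured day 7 mean to the injured day 3 mean had a median of 0.48 over the 41 members, from 0.229 for Plk1 to 1.16 for Cenpf, the only member with a higher uninjured peak. These are different mice, and the ratio was not tested.

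At day 7 fewer members differed between the regions of a heart than at day 3. Only 2 of 41 were higher in the injured region (43.6% of all genes were) and 12 were lower (38.7%), with a median log2 difference of -0.23. The 2 were Tyms (chromosome 5, 30058202 to 30073617), at 3.33, 2.92, 3.34 and 2.89 RPKM in the injured region, against 1.61, 0.981, 1.61 and 1.76 RPKM in the uninjured region (0.74 ± 0.10, limma adjusted p = 7.1e-07), and Plk1, at 1.73, 2.4, 4.22 and 2.16 RPKM in the injured region, against 1.76, 1.15, 2.01 and 2.74 RPKM in the uninjured region (0.30 ± 0.13, limma adjusted p = 0.038). Tyms values did not overlap, while Plk1 values did. The Plk1 call was lost without A9 (0.18, limma adjusted p = 0.256) or A10 (0.13, limma adjusted p = 0.362), with a pseudocount of 0.1 or 0.5 RPKM (limma adjusted p = 0.102 and 0.0517), after quantile normalization (0.066, limma adjusted p = 0.643), without the mouse block (limma adjusted p = 0.078) and with only the libraries of that day (limma adjusted p = 0.122). The 12 lower members were Pcna and 11 mitosis genes: Cenpf, Top2a, Ccna2, Ccnb2, Kif11, Kif23, Prc1, Nusap1, Ncapg, Ncapd2 and Smc2. Among these Cenpf (-1.03 ± 0.14), Pcna (-0.66 ± 0.09), Nusap1 (-0.65 ± 0.16) and Ccna2 (-0.63 ± 0.23) had the widest gaps together with Ccnb2 (-0.63 ± 0.25). The Ccna2 call was lost with a pseudocount of 0.1 RPKM (limma adjusted p = 0.0535), with scaling to the recovered reads (-0.40, limma adjusted p = 0.115) and without A7 (limma adjusted p = 0.103) or A12 (limma adjusted p = 0.0832). The number lower was 19 without mouse A9 and 6 without A7 or without A12, and it was 20 after quantile normalization and 5 with scaling to the recovered reads.

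Between day 7 and day 14 the members fell in both regions. Of 41 members 37 fell in the uninjured region (5.56% of all genes fell and 7.49% rose, 0 members among them), by a median of -0.59 for replication and -1.42 for mitosis genes, and Mcm2, Rrm2, Cenpf and Ube2c did not pass. Also 37 of 41 fell in the injured region (21.2% of all genes fell and 21.9% rose, 0 members among them), by a median of -0.33 for replication and -0.92 for mitosis genes, and Mcm2, Mcm7, Rrm2 and Smc4 did not pass. Mki67 had 5.34, 5.04, 4.67 and 5.83 RPKM in the injured region of mice A4, A5, A6 and A11 at day 14, against 3.34, 3.15, 1.59 and 3.21 RPKM in the uninjured region. Its fall from day 7 was 1.19 ± 0.12 in the injured region and 2.2 ± 0.31 in the uninjured region, the deepest of the 41 there (limma adjusted p = 1.71e-06 and 0.000265). Ccna2 was at 2.95, 2.3, 2.27 and 2.63 RPKM in the injured region, against 2.23, 2.64, 1.32 and 2.22 RPKM in the uninjured region, with falls of 1.16 ± 0.13 and 2.0 ± 0.33. For 15 of 41 members the uninjured fall was the deeper one by the test of the difference (10.7% of all genes were higher in this contrast). They were Mcm3, Mcm7, Uhrf1, Mki67, Top2a, Aurkb, Kif11, Kif23, Prc1, Nusap1, Ncapg, Smc2, Smc4, Ect2 and Lmnb1, and their number ranged from 6 to 21 without 1 mouse of either day (6 without A7 or A12 of day 7, 7 without A6 and 9 without A5 of day 14).

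Against day 3, 0 of 41 members passed by limma in the uninjured region at day 14, 8 reached an unadjusted p under 0.05, and 3.18% of all genes were higher and 2.83% lower. Lmnb1 was lower than at day 3 at day 21 (5.78% of all genes were lower and 5.72% higher), and Pcna, Aurkb, Ncapg and Lmnb1 at day 42 (12.4% lower, 11.3% higher), and 0 members were higher on either day. All 41 members were lower in the injured region than at day 3 on each of days 14, 21 and 42 (34.4%, 34.1% and 36.2% of all genes). The day 3 mean was a median of 3.63 times the day 21 mean for replication and 9.53 times for mitosis genes. Lmnb1 was 6.86 times as high at day 3.

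No step from day 14 to day 21 was called by limma, for any member in either region. In the injured region 0 of 11390 genes passed and 17 members reached an unadjusted p under 0.05, with a median log2 change of -0.21. In the uninjured region 0 members passed, 0 reached an unadjusted p under 0.05, and 0.00878% of all genes were higher. From day 21 to day 42, 8 members rose in the injured region (11.2% of all genes did): the replication genes Mcm4 and Rrm1 and the mitosis genes Mki67, Kif11, Kif23, Nusap1, Smc2 and Smc4. Smc4 rose by 0.43 ± 0.09 (limma adjusted p = 0.00258), to 18.3, 18.98, 21.8 and 22.4 RPKM in mice B1, B3, B9 and B12, against 14.3, 17.9, 14.3 and 13.2 RPKM in A3, A4, A10 and A11 of day 21. The injured count ranged from 2 to 11 without 1 mouse of either day and was 2 without A3, A11, B9 or B12, 4 without A10 and 5 without B3. Pcna alone fell in the uninjured region (-0.34 ± 0.10, limma adjusted p = 0.0251, 10.1% of all genes lower). With scaling to the recovered reads, or without A4, A10, B1 or B9, 0 members fell, and 2 fell without A3, A11 or B12. The regional difference itself changed over this step for Mcm4 (0.41 ± 0.11) and Pcna (0.43 ± 0.13) (4.58% of all genes were higher and 8.21% lower, 0 members among them), for 0 members without A3, A10, B1, B3 or B9, 1 without A4 and 4 without B12. Over the step before it, 0 of 41 regional differences changed by limma, with 3 at an unadjusted p under 0.05 and 0% of all genes called.

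The late differences between the regions were small beside those of day 3. At day 14 the injured region was the higher for 19 of 41 members and the lower for 4 (42.4% and 40.5% of all genes), with a median of 0.28. At day 21, 7 were higher and 7 lower (43.1% and 41% of all genes), with a median of -0.03. At day 42, 19 were higher and 2 lower (40.5% and 38.7% of all genes), with a median of 0.26. The median turned to -0.18 at day 14 and -0.09 at day 42 after quantile normalization, and to 0.13 at day 21 without mouse A10. No direction of the members as a set thus held on these days. Scaling to the recovered reads gave 0.23 at day 21, where the median of all genes was 0.39. Relative to all genes, the median member of day 21 stood at -0.07 with the deposited values. It stood at -0.45 after quantile normalization and -0.15 with the recovered reads. The 19 members higher at day 14 and the 19 at day 42, not all the same genes, each made up a share near that of all genes. The 4 and 2 members lower on those days made up a smaller share than the 40.5% and 38.7% of all genes. Without 1 mouse the number higher at day 42 was 10 without B1 or B9, and the numbers lower were 3 at day 21 without A10 and 1 at day 42 without B3 or B12.

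Some single members differed between the regions on several of these days. Tyms was the higher in the injured region on all 5 days, under each of the 3 scalings, with means of 2.1 ± 0.146, 1.96 ± 0.167 and 1.81 ± 0.336 RPKM on days 14, 21 and 42 in the injured region, against 0.548 ± 0.139, 0.535 ± 0.228 and 0.572 ± 0.0384 RPKM in the uninjured region (SD, n = 4). Its log2 difference was 1.01 ± 0.10, 0.96 ± 0.10 and 0.83 ± 0.10 on those days (limma adjusted p at most 1.4e-07), and no pair of groups overlapped. Smc4 was higher in the injured region at day 3 and from day 14, by 0.70 ± 0.10, 0.59 ± 0.10 and 0.91 ± 0.10 (limma adjusted p at most 1.11e-05). It had the highest injured mean of the 41 from day 7 on, at 17.6 RPKM at day 14 against 10.5 RPKM in the uninjured region. Lmnb1 and Mcm6 were also higher on days 14, 21 and 42, by 0.53 to 0.67 and 0.41 to 0.67. The Lmnb1 call of day 21 was lost after quantile normalization (0.19, limma adjusted p = 0.0883). Mcm3, Mcm4 and Mcm7 were called higher on those days too in the main model, Mcm4 at day 21 with a limma adjusted p of 0.0473. Mki67 was higher on days 14 and 42, by 0.73 ± 0.18 and 0.87 ± 0.18, and did not pass at day 21 (0.39 ± 0.18, limma adjusted p = 0.054). At day 21 Mki67 passed with a pseudocount of 0.1 or 0.5 RPKM (limma adjusted p = 0.0412 and 0.0472), with scaling to the recovered reads (0.74, limma adjusted p = 0.00175), with only the libraries of that day (limma adjusted p = 0.0375) and without mouse A10 (0.60, limma adjusted p = 0.00891).

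Cenpf and Pcna went the other way. Mcm2 and Ncapd2 were also called lower in the injured region on days 14 and 21, and Aurka, Ube2c and Kif20a at day 21. The Aurka and Ube2c calls were lost with scaling to the recovered reads and without mouse A10. At day 7 Cenpf had 2.28, 2.38, 3.04 and 2.45 RPKM in the injured region, against 6.77, 4.62, 6.88 and 6.7 RPKM in the uninjured region. At day 42 it had 1.13, 1.4, 1.5 and 1.38 RPKM in the injured region, against 3.07, 3.82, 5.28 and 2.95 RPKM in the uninjured region. The groups did not overlap from day 7 to day 42, with log2 differences of -1.03 ± 0.14, -1.04 ± 0.14, -0.95 ± 0.14 and -1.0 ± 0.14 on days 7, 14, 21 and 42 (limma adjusted p at most 2.76e-06). Its uninjured mean ranged from 2.95 to 6.24 RPKM over the days, while its injured mean fell to 0.96 RPKM at day 21, against 5.38 RPKM at day 3. Pcna was lower in the injured region by -0.44 ± 0.09, -0.65 ± 0.09 and -0.22 ± 0.09 on days 14, 21 and 42 (limma adjusted p at most 0.0351). At day 42 that direction flipped to 0.17 with scaling to the recovered reads. That scaling put the median of all genes 0.36 and 0.37 higher in the injured region on days 14 and 42. The Pcna call of day 14 was lost with that scaling (-0.062, limma adjusted p = 0.577), and the call of day 42 after quantile normalization (-0.11, limma adjusted p = 0.301) and without mouse B3 (limma adjusted p = 0.117) or B12 (limma adjusted p = 0.167). Its uninjured level, 12.3 ± 0.94 RPKM at day 14, was the highest of the 41 there, against 8.82 ± 1.11 RPKM in the injured region.

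**Figure D4:**
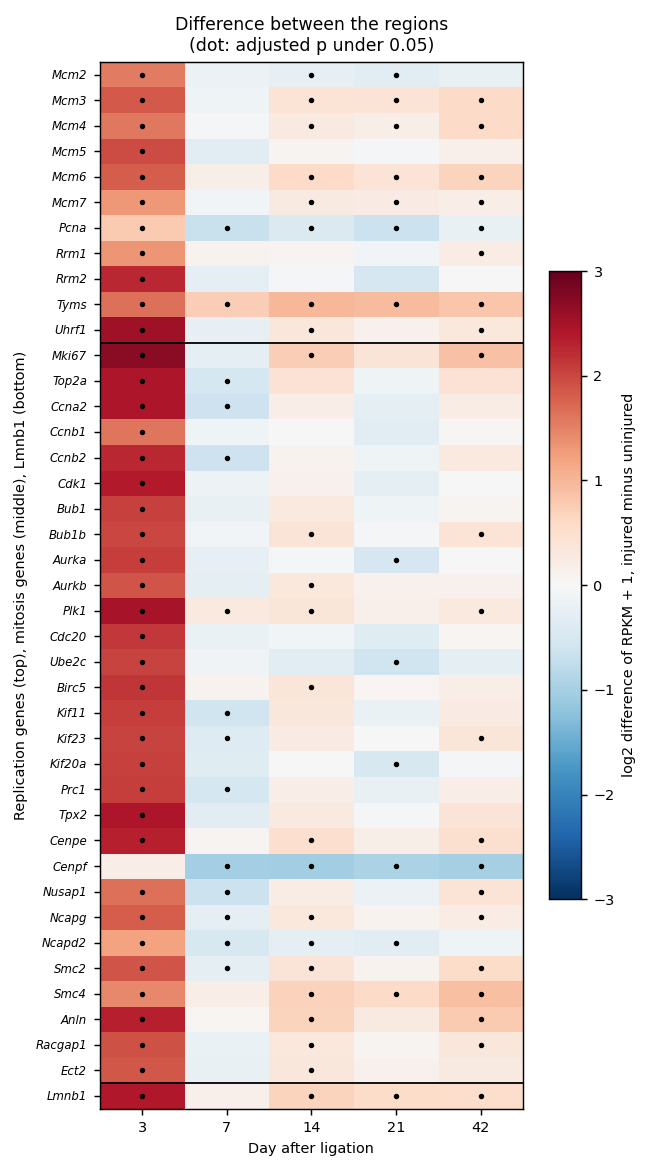
Log2 difference of RPKM + 1, injured minus uninjured, for 11 replication genes (top), 29 mitosis genes (middle) and Lmnb1 (bottom) on 5 days after ligation, with a dot where the limma adjusted p was under 0.05. At day 3 all rows are red, Cenpf palest at 0.21 with no dot, and Cenpf is blue from day 7 on.

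Mice of a group differed over the whole set of members at once. In the uninjured region at day 7, mouse A9 was the lowest of 4 for 41 of 41 members. Of the injured libraries of that day A10 was the highest for 40 of 41. At day 3 in the uninjured region A7 was highest for 36 and A8 lowest for 33, at day 14 A6 lowest for 36, at day 21 A10 highest for 39, and at day 42 B12 highest for 37. The median coefficient of variation over members was 9.32% in the injured region at day 3, and it was 43.1%, 46% and 39.6% in the uninjured region on days 3, 21 and 42. Ccna2 at day 21 shows the width of that spread, with 1.37, 1.98, 1.97 and 1.5 RPKM in the injured region of A3, A4, A10 and A11, against 1.4, 3.4, 4.38 and 0.982 RPKM in the uninjured region. Cenpf did not follow it: its uninjured values at day 21 were 3.15, 4.88, 2.28 and 1.5 RPKM, with A10 below A3 and A4.

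Other cell cycle genes, from lists compiled for the same pathways, were tested in the same models. At day 3, 30 of 42 other replication genes stood higher in the injured region and 6 lower, with a median of 0.97. Of 46 other mitosis genes 41 were higher and 3 lower, with a median of 1.67. Over all genes 44.1% were higher and 39.6% lower at day 3. The DNA ligase gene Lig1 (2.06 ± 0.09) and the passenger complex gene Incenp (2.34 ± 0.11) had the largest differences. Gmnn, which encodes the licensing inhibitor geminin, and Pttg1, which encodes securin, were lower (-1.65 ± 0.11 and -2.28 ± 0.07), and they were the lowest of their lists on the other 4 days too. Of 18 E2F, RB and MuvB regulators 13 were higher at day 3, among them Foxm1 (2.26 ± 0.11), E2f1 (2.03 ± 0.10) and Mybl2, which encodes B-Myb (1.4 ± 0.06). The repressor gene E2f6 (-1.91 ± 0.07), Tfdp2 (-1.78 ± 0.08), Rbl2 (-1.08 ± 0.07) and Lin52 (-0.74 ± 0.10) were lower. At day 3 Foxm1 averaged 5.95 RPKM in the injured region, against 0.458 RPKM in the uninjured region.

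The same lists were followed from day 3 to day 7. The injured region showed falls of 36 of 42 other replication, 44 of 46 other mitosis and 13 of 18 regulator genes, while 1, 0 and 2 rose (32.7% of all genes fell and 27.7% rose). Of the same lists 24 of 42, 36 of 46 and 8 of 18 rose in the uninjured region, while 2, 0 and 1 fell (10.4% of all genes rose and 14.5% fell), and Foxm1 rose there by 0.73 ± 0.13 (limma adjusted p = 0.000834). The G1 cyclins and kinases act before S phase. At day 3, 7 of 9 were higher in the injured region (44.1% of all genes were), led by Cdk6 (1.49 ± 0.09) and Ccne1 (1.3 ± 0.10). Ccnd1 (0.12 ± 0.11) and Ccnd2 (0.02 ± 0.09) did not pass. At day 7 Ccnd1, which encodes cyclin D1, was lower in the injured region (-1.96 ± 0.11, limma adjusted p = 3.49e-13). Of 6 genes for inhibitors of cyclin-dependent kinases 4 were higher at day 3, a share to be read beside the 44.1% of all genes. Among them were Cdkn1a (p21) at 1.95 ± 0.15 and Cdkn2b (p15) at 0.75 ± 0.14. Cdkn1c and Cdkn1b were lower at -1.87 ± 0.17 and -0.26 ± 0.06 (39.6% of all genes were lower). At day 7 Cdkn2b stood 2.37 ± 0.14 higher in the injured region.

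Markers of some cell types went with the members at day 3 and others did not (44.1% of all genes were higher in the injured region and 39.6% lower). At day 3, 13 of 13 monocyte and macrophage markers and 5 of 5 neutrophil markers were higher in the injured region. Their summed levels were 1130 to 1749 and 34 to 81 RPKM in the injured region, against 331 to 395 and 3.2 to 12 RPKM in the uninjured region. Of 10 fibroblast markers 7 were higher and 2 lower (1653 to 2181 RPKM summed in the injured region, 610 to 804 in the uninjured region), and of 8 endothelial markers 3 were higher and 2 lower (206 to 241 RPKM summed in the injured region, 180 to 194 in the uninjured region). The 8 pericyte and smooth muscle markers summed to 345 to 437 RPKM in the injured region, against 436 to 487 RPKM in the uninjured region. All 10 cardiomyocyte markers were lower, at 1533 to 3391 RPKM summed in the injured region, against 31422 to 35981 RPKM in the uninjured region. Transcripts of heart muscle, the labelled tissue, were thus found in both regions. From day 3 to day 7 nearly all members fell in the injured region. Over that step the median sums there rose for monocyte and macrophage (1346.6 to 1729.8 RPKM) and fibroblast markers (1936.3 to 5773.4). Those of pericyte and smooth muscle markers rose too (415.9 to 691.3). They fell for neutrophil (58.7 to 8.4), endothelial (227.9 to 125.6) and cardiomyocyte markers (2738.8 to 2241.3). The part of these cell types in the members' difference or in their fall was not tested.

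For the uninjured rise of day 7 the marker lists read otherwise, beside 10.4% of all genes that rose there and 14.5% that fell. From day 3 to day 7 there, 0 of 13 macrophage markers rose and 2 fell (324 to 349 RPKM summed at day 7), and 0 of 5 neutrophil markers rose and 4 fell (1.2 to 2.7 RPKM). None of 10 fibroblast markers passed by limma (2 had an unadjusted p under 0.05, 703 to 903 RPKM at day 7), while 3 of 8 endothelial markers rose and 0 fell (211 to 226 RPKM at day 7, against 180 to 194 at day 3). Of 10 cardiomyocyte markers 0 rose and 6 fell (23220 to 29724 RPKM at day 7, against 31422 to 35981 at day 3). Of 8 pericyte and smooth muscle markers 1 rose and 2 fell (438 to 514 RPKM at day 7, against 436 to 487 at day 3). Chil3, Arg1, S100a8, Cxcr2 and Mmp9 were listed at 0 in some libraries, and no marker of the other lists was. Lymphocyte markers were not analysed here, since 0 of the 10 listed had values. The part of any of these cell types in the rise was not tested.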

How the data were processed

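RNA-seq libraries were made from total RNA of 2 regions of each heart with a TruSeq kit, per the labels' protocols, and STAR, edgeR and mm10 are named in the submitters' processing notes without versions or roles. For annotation, counting and the choice of the 11450 genes: not given in the sources used here. The authors deposited RPKM, reads per gene scaled to length and library size. Since RPKM are not counts, tests used limma 3.58.1 (R 4.3.3, statmod 1.5.0; trend and robust moderation) on log2(RPKM + 1). A gene entered if it reached 1 RPKM in 4 libraries or more. Regions were compared in 1 model of 40 libraries with the mouse as a block, days in a model of each region's 20 libraries (15 residual degrees of freedom each). P-values were Benjamini-Hochberg adjusted over all 11390 genes, at 0.05. The mouse pairs libraries because, per the series' design text, the 2 regions were cut from 1 heart. Deviations of a mouse's libraries from their group means correlated at 0.148 to 0.54, and in 20 of 20 mice each injured library correlated best with its partner.

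Whole reads were recovered for 11437 genes, with 99.9% of values within 0.01 of a whole number. Their total, divided by the library size behind the RPKM and set to 1 for the injured library of day 3 mouse A4, had a median of 1.02 in injured and 1.35 in uninjured libraries. The members, and the lists of other genes and markers, were chosen with earlier results of these data known. Values per library are given, on some of the days, for the member of each role with the highest mean and for the members with the 2 largest and 2 smallest differences of any day. Members whose windows are printed, or singled out beyond that, were chosen after their values were seen. Pseudocounts of 0.1 and 0.5, 2 other filters, 2 other scalings, other forms of the mouse block and leaving out each mouse were tried.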

Additional observations from a re-analysis of the deposited data

Results flagged for a closer look

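Of 150 groups of 4 libraries of the 15 members with values per library, 7 held a library that stood apart from the other 3 by Dixon's criterion, which chance gives for about 1 group in 20. Cdc20 was at 9.59 RPKM in the injured library of day 7 mouse A10, against 3.78 to 4.55 RPKM in the others. In the uninjured region of day 7, mouse A9 was low for Kif11 (5.05 RPKM, others 8.74 to 9.02), Cenpf (4.62 RPKM, others 6.70 to 6.88) and Uhrf1 (2.38 RPKM, others 4.0 to 4.25). In other uninjured groups, Aurka was high in B12 of day 42 (1.61 RPKM, others 0.512 to 0.657), Smc4 low in A8 of day 3 (6.29 RPKM, others 8.64 to 9.02) and Mki67 low in A6 of day 14 (1.59 RPKM, others 3.15 to 3.34).

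The step in the regional difference was called by limma for 41 members from day 3 to day 7, 15 from day 7 to day 14, and 2 from day 21 to day 42.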

How the results depend on the processing

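The day 3 difference, the steps from day 3 to day 7 and the falls from day 7 to day 14 within each region kept their direction, and their numbers of members stayed within 1.5 times, in every alternative tried. At day 3, 40 to 41 members were higher with 1 mouse left out and 33 to 41 under the other alternatives, and 0 were lower in each. The fall from day 3 to day 7 in the injured region was called for 40 to 41 and 33 to 41 members on the same 2 counts, the uninjured rise for 34 to 40 and 32 to 40, the step in the regional difference for 41 and 34 to 41, the injured fall from day 7 to day 14 for 36 to 39 and 30 to 38, and the uninjured fall for 36 to 37 and 30 to 39. The lowest of these numbers came with the filter of 1 RPKM in 20 libraries, under which 34 members were tested.

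The numbers of members called between the regions from day 7 on moved with the scaling. At day 7, where 2 were higher and 12 lower, 1 was higher with a pseudocount of 0.1 or 0.5 RPKM, with the stricter filter, without the replicate block and with only the libraries of that day, and 8 with scaling to the recovered reads. The number lower at day 7 was 6 with a pseudocount of 0.1 RPKM, 20 after quantile normalization and 5 with recovered reads. After quantile normalization the day 14 numbers were 6 higher and 9 lower, the day 21 numbers 3 and 30, and the day 42 numbers 9 and 7. With recovered reads 1 was lower on day 14, 16 were higher and 2 lower on day 21, and 1 was lower on day 42. The median log2 difference of the members reversed to -0.18 at day 14 and -0.087 at day 42 after quantile normalization. At day 21 it reversed to 0.23 with recovered reads, where the median of all genes was higher still, at 0.39. The cause was not tested.

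Among the members with values per library, quantile normalization reversed the log2 difference between the regions for Ccna2 at day 14 (-0.11) and day 42 (-0.13), Cdc20 at day 42 (-0.32), Aurka at day 42 (-0.40), Kif11 at day 14 (-0.067) and day 42 (-0.079), Anln at day 21 (-0.071), Uhrf1 at days 14, 21 and 42 (-0.17, -0.35 and -0.095), and Plk1 at days 14, 21 and 42 (-0.15, -0.29 and -0.071). Scaling to the recovered reads reversed it for Pcna at day 42 (0.17), Ccna2 at day 21 (0.019), Cdc20 at days 7 and 14 (0.019 and 0.19), Aurka at day 14 (0.18), Kif11 at day 21 (0.062) and Ube2c at day 7 (0.083). With that scaling the median of all genes was itself 0.26 to 0.47 higher in the injured region over the days.

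The main model held the replicate block, which pairs the regions of a mouse. Without the replicate block the step in the regional difference from day 7 to day 14 was called for 8 members, against 15 with it, and the step from day 21 to day 42 for 0, against 2 with it. With the mouse as a random effect these numbers were 15 and 2. Without the replicate block 40, 17, 6 and 15 members were higher on days 3, 14, 21 and 42. The step from day 7 to day 14 was called for 4 members after quantile normalization. With recovered reads the step from day 21 to day 42 was called for 0 members, and the uninjured fall over that interval for 0.

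With 1 mouse left out in turn, 1 to 4 members were higher and 6 to 19 lower on day 7. On day 21, 3 to 9 were lower, and on day 42, 10 to 20 were higher and 1 to 3 lower. From day 21 to day 42, 2 to 11 rose in the injured region and 0 to 2 fell in the uninjured region. The step in the regional difference was called for 6 to 21 members from day 7 to day 14 and for 0 to 4 from day 21 to day 42. The median log2 difference at day 21 ranged from -0.11 to 0.13. Log2 differences that reversed without 1 mouse were those of Cdc20 at day 7 (-0.43 to 0.015), day 14 (-0.18 to 0.041) and day 42 (-0.036 to 0.15), Aurka at day 14 (-0.14 to 0.046) and day 42 (-0.13 to 0.19), Anln at day 7 (-0.14 to 0.29), Lmnb1 at day 7 (-0.0059 to 0.24) and Ube2c at day 7 (-0.21 to 0.021).

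A member rested on 4 to 12209 recovered reads in a library, with a median of 249.5, and how depth limits the calls was not tested.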
